A study of Mus musculus with 16 samples.

Results

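The stretch response common to immune and stromal skin cells was measured as a contrast over all 16 of the 16 libraries of the series: the mean of the stretch effect within the immune fraction and the stretch effect within the stromal fraction. Mouse skin was stretched by hypobaric pressure, a suction applied to the skin, and its cells were taken 6 h later and sorted into CD45-positive (immune) and CD45-negative (stromal) cells. Cells from unstretched skin of the same body area served as controls, so both fractions were made from stretched and from control skin. RNA of each sorted fraction was sequenced in bulk, with 4 libraries of control and 4 of stretched skin per fraction, in all 4 groups. Strain, age and sex of the mice, the duration and strength of the suction, and whether animals were pooled are not stated by the labels. Since nothing in the labels ties the 4 libraries of a group to 4 different mice, p-values cover only the spread from library to library, which may be technical. The number after a group's name is the number in that library's title. Gene levels are given as CPM, counts scaled to a common library total, with edgeR's TMM scaling between libraries, and sums over a list as CPM of the library total.

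Skin cells sense stretch through integrin adhesions, ion channels and the nuclear envelope, and pass it on through MAP kinases and through transcription factors such as AP-1, YAP and NF-kB. NF-kB proteins are held in the cytoplasm by inhibitors of the IkB family until a stimulus frees them, after which they switch on adhesion molecules, cytokines and their own inhibitors. Small Maf proteins are DNA-binding partners of NRF2 and BACH factors at genes of the oxidative stress response.

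The sort held by its own marker: *Ptprc*, which encodes CD45, was at 319.9 to 567.8 CPM of the library total in the 8 immune libraries and at 0.0643 to 3.87 CPM in the 8 stromal libraries. Stromal libraries held 13563586 to 20467010 counts in controls and 21955174 to 26944965 after stretch. Immune libraries held 2645421 to 6662268 counts in controls and 7018743 to 20095580 after stretch, so depth and treatment cannot be told apart within a fraction. Genes of odorant and pheromone receptors, whose normal place is the sensory epithelium of the nose, summed to 6209 CPM in immune control 4, 424 CPM in stromal stretched 7 and 208 CPM in stromal stretched 8, against 17.96 to 69.9 CPM in the other libraries. Neutrophil markers summed to 40900 CPM in immune stretched 2 and to at most 11900 CPM in any other library. In bulk samples, fewer cells of a type and less RNA per cell cannot be told apart.

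Stretch raised 291 genes and lowered 226 genes as the mean of both fractions, 517 of 18295 genes tested (2.83% called, 1.59% higher and 1.24% lower, with 19.7% at an unadjusted p under 0.05), at an adjusted p under 0.05 (edgeR quasi-likelihood test, Benjamini-Hochberg over all genes tested). The genes that rose included NF-kB subunits, the small Maf gene *Mafk*, the kinase genes *Plk3* and *Map3k3*, and the nuclear envelope gene *Lbr*. Those that fell included ribosomal protein genes, their pseudogene copies and small subunits of the respiratory chain. The median shared log2 fold change was 0.89 among the genes called higher, -1.04 among those called lower and 0.051 over all genes tested. Of the 517 genes, 505 had effects of the same sign in both fractions (280 higher and 225 lower). They were called on the mean of these same 2 effects, which by itself favours equal signs. Over all genes tested, 26.2% had 2 positive effects and 20.9% had 2 negative effects.

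A mean of 2 effects can be carried by 1 of them. In the same fit the immune effect by itself was called for 667 genes (3.65%, with 3.04% higher and 0.601% lower), while the stromal effect was called for 0 genes (0%), with a smallest adjusted p of 0.127 and 2996 genes at an unadjusted p under 0.05. A test that asks for both effects at once also called 0 genes (0%), with 435 genes (2.38%) at an unadjusted p under 0.05 in each fraction. Which fraction had more calls turned with the model. With each fraction fitted by itself 800 genes were called for the stromal effect and 0 for the immune effect, with 1 variance weight per fraction in limma-voom 1473 and 79, and with DESeq2 1204 and 2278. DESeq2 called 1 gene for both effects at once. The difference between the immune and the stromal effect was called for 0 genes (0%) by edgeR, with 4232 at an unadjusted p under 0.05, and for 1609 by DESeq2. It was called for 29 genes without immune control 4, 114 without immune stretched 2 and 1495 without immune control 6. Of the 517 genes with a shared effect, 289 had an unadjusted p under 0.05 in each fraction, 163 in the immune fraction alone and 65 in the stromal fraction alone. The immune effect was the larger in 322 of the 517, and 224 of the 517 were also called for the immune effect. All 4 stretched libraries lay on 1 side of all 4 controls in each fraction for 159 of the 517 genes (80 higher and 79 lower), against 213 (1.16%, with 0.612% higher and 0.552% lower) of all genes tested. The call of the 517 on these same libraries favours groups that lie apart. In the stromal fraction alone the groups were apart for 16.5% of all genes tested, and in the immune fraction alone for 10.1%.

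**Figure D1:**
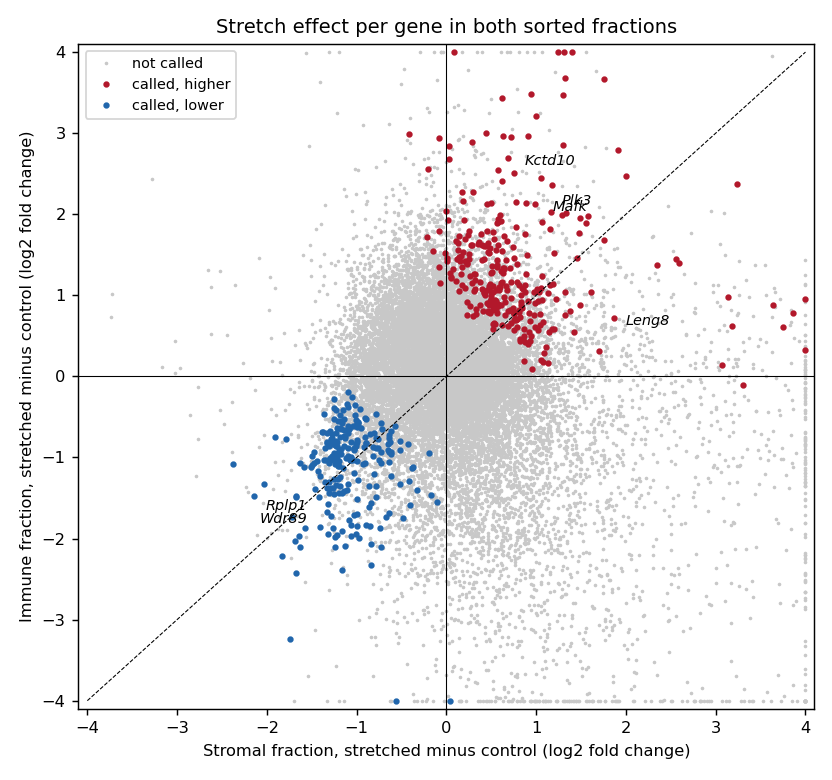
Each point is 1 of 18295 genes, with the stromal log2 fold change (stretched minus control) on the horizontal axis and the immune log2 fold change on the vertical axis, values beyond 4 being drawn at the edge. Genes called higher (291, red) lie mostly in the upper right and genes called lower (226, blue) mostly in the lower left, and 505 of the 517 have the same sign on both axes. The call rests on the mean of both effects, which favours equal signs.

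The count depended on single libraries and on the scaling. The shared count was 91, 300 and 11 without stromal control 1, 2 and 3, and 313, 193, 104 and 41 without stromal stretched 5, 6, 7 and 8. It was 834 without immune control 4, and 152, 999, 50 and 12 without immune stretched 1, 2, 7 and 8. The immune count ran from 66 without immune stretched 8 to 1622 without immune control 6, and moved by over 1.5 times without any library other than stromal stretched 7 or immune control 3. Of the genes with a shared effect 56.3% were higher with TMM scaling, and with upper-quartile scaling 36.0% of 809 were. With the log2 of the library size as a covariate, 0 genes were called by edgeR and 1948 had an unadjusted p under 0.05. Of 69 called genes followed through 32 alternative settings, 0 were called under every one and 16 were called under fewer than 16. The sign reversed in 0 of the 69, which were chosen because they were called. Called least often were *Gclc* (8 of 32), *Trpv2* (10), *Zbtb46* (11), and *Icam1*, *Itga5*, *Actn4*, *Cd40* and *Ndufc1* (12 each), and the smallest shared log2 fold change was 0.10 for *Actn4*, 0.20 for *Zbtb46* and 0.24 for *Icam1*.

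Several genes of the NF-kB pathway rose. The gene lists and their members were chosen with earlier results of these data known, so the shares of a list are not an independent test. Of 27 listed genes, all tested, 6 were called higher and 0 lower, against 1.59% and 1.24% of all genes tested. A positive shared effect was found in 26, against 54.2% of all genes tested. The median shared log2 fold change of the list was 0.63 (0.47 in stromal and 0.66 in immune cells), beside 0.051 over all genes tested. Between 22 and 27 members were positive under the alternative settings, scaling included. The 6 were 3 of the 5 NF-kB subunits (*Rela*, *Relb* and *Nfkb2*), the nuclear IkB protein *Bcl3*, the inhibitory adaptor *Tnip2* and the leukocyte adhesion molecule *Icam1*.

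*Relb* (ENSMUSG00000002983, chromosome 7, 19606217 to 19629438, GRCm38) encodes the subunit that pairs with the *Nfkb2* product in the non-canonical pathway. It was at 57.2, 53.6, 57.3 and 38.4 CPM in the stromal controls and at 74.5, 78.7, 68.7 and 81.9 CPM in the stretched stromal libraries. In immune cells it was at 44.7, 40.9, 69.7 and 45.5 CPM in controls and 81.9, 104, 79.3 and 118 CPM after stretch. The groups did not overlap in either fraction, and the shared log2 fold change was 0.74 ± 0.16 (SE; edgeR adjusted p = 0.0279). *Rela* (ENSMUSG00000024927, chromosome 19, 5637483 to 5648130), the main activating subunit, was at 268, 282, 248 and 161 CPM in stromal controls and 354, 410, 337 and 444 CPM in stretched stromal libraries. Its immune values were 107, 75.7, 131 and 114 CPM in controls and 166, 168, 175 and 241 CPM after stretch. These groups too were apart in both fractions, with effects of 0.69 ± 0.24 in stromal and 0.81 ± 0.24 in immune cells and a shared effect of 0.75 ± 0.17 (adjusted p = 0.0312).

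*Nfkb2* (ENSMUSG00000025225, chromosome 19, 46304320 to 46312385), the precursor of the p52 subunit, rose by a shared log2 fold change of 1.0 ± 0.22 (adjusted p = 0.0286). Its stromal means were 78.0 ± 25.6 CPM in controls and 163 ± 12.1 CPM after stretch, and its immune means 72.4 ± 30.8 and 139 ± 29.3 CPM (SD, n = 4 per group). The stromal groups were apart, whereas the immune groups met, with 111 CPM in immune control 5 and 110 CPM in immune stretched 7. *Icam1* had effects of 1.03 ± 0.36 in stromal and 1.04 ± 0.36 in immune cells (shared adjusted p = 0.0400). *Bcl3* rose mainly through the immune fraction (1.61 ± 0.31, against 0.42 ± 0.30 in the stromal fraction), and the adjusted p of that difference was 0.130. *Tnip2* rose by 0.89 ± 0.21 (adjusted p = 0.0333). The other subunit genes did not pass: *Nfkb1* had a shared log2 fold change of 0.07 ± 0.24 and *Rel* of 0.33 ± 0.25. Among the pathway's inhibitors, *Nfkbia* was at 0.01 ± 0.25, with -0.54 ± 0.35 in stromal and 0.57 ± 0.35 in immune cells, *Tnfaip3* at 0.58 ± 0.20 (adjusted p = 0.129) and *Tnip1* at 0.67 ± 0.19 (adjusted p = 0.0605).

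The promoters of list members are shown because the list is defined by a transcription factor with a known DNA motif. RefSeq (GRCm38.p6) gave a window before the start for 12153 of the 18295 genes tested and for 21 of the 27 list members, and the first listed window of a gene was used. The NF-kB motif, searched on both strands in the 250 bases before the start, was found in 9 of these 21 (42.9%), in 4.54% of all genes with a window, in 2.78% of the 216 genes called higher and in 3.67% of the 109 called lower. Of the 6 members called, 5 had a window and 1, *Nfkb2*, held the motif. The 100 bases before the RefSeq start of *Nfkb2* (chr19:46304637-46304736, plus strand), *Tnip1* (chr11:54962941-54963040, minus strand), *Cxcl1* (chr5:90891145-90891244, plus strand) and *Nfkbia* (chr12:55492648-55492747, minus strand) follow, 5′ to 3′ on the gene's strand, with motif matches in capitals.
Nfkb2: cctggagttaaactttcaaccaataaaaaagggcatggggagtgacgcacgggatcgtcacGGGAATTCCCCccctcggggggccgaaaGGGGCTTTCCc
Tnip1: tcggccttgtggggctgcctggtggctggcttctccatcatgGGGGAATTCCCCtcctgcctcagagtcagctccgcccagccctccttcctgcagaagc
Cxcl1: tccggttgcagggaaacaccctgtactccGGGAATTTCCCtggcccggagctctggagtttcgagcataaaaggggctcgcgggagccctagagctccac
Nfkbia: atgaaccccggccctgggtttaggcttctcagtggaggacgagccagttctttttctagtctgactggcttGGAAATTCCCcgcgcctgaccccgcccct
*Nfkb2* rose, while the other 3 did not pass the test, with shared log2 fold changes of 0.67 for *Tnip1*, 0.59 for *Cxcl1* and 0.01 for *Nfkbia*. A match describes the letters only, and binding was not measured here.

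Markers of other cells are given beside the NF-kB genes, and none of the neutrophil or leukocyte markers was called. The 14 neutrophil markers summed to 1050 to 11900 CPM in immune controls and 645 to 40900 CPM in stretched immune libraries, and to 641 to 816 and 566 to 1030 CPM in the stromal groups, so the groups overlapped. The median shared effect of the neutrophil markers was 1.0 with all libraries, -1.04 without immune stretched 2 and -0.81 without immune stretched 2 and immune control 4. The 12 leukocyte markers summed to 44.2 to 63.1 CPM in stromal controls and 43.5 to 107 CPM in stretched stromal libraries. Without immune stretched 2, the library with 40900 CPM of neutrophil markers, 6 NF-kB members were called higher. With the log2 library size as a covariate 0 were called, with 24 of 27 positive. With offsets for transcript length and GC content 0 were called as well. Leaving out 1 library at a time gave 0 to 8 calls, with 0 without stromal control 3, stromal stretched 8, immune stretched 7 or immune stretched 8, and 1 without stromal control 1, stromal stretched 6, stromal stretched 7 or immune stretched 1.

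*Mafk* (ENSMUSG00000018143, chromosome 5, 139791513 to 139802653), a small Maf transcription factor without an activation domain of its own, had the smallest p of all genes tested. It was at 155, 106, 107 and 114 CPM in the stromal controls and at 237, 276, 251 and 244 CPM in the stretched stromal libraries. In the immune fraction it was at 30.6, 20.3, 34.8 and 47.2 CPM in controls and at 116, 117, 110 and 158 CPM after stretch. The groups did not overlap in either fraction, a condition by which the named genes with the largest effects, *Mafk* among them, were chosen. The log2 fold change was 1.07 ± 0.24 in stromal cells, 1.91 ± 0.25 in immune cells and 1.49 ± 0.18 as their mean (edgeR adjusted p = 0.00296), and the difference of the effects, 0.84 ± 0.34, did not pass (adjusted p = 0.163). *Mafk* was called under 29 of 32 alternative settings, the exceptions being the library-size covariate (log2 fold change 1.17), a minimum fold of 1.5 and the replicate block.

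Among 26 small Maf and NRF2 genes, 4 rose, 0 fell and 20 had a positive shared effect, with a median of 0.31. Over all genes tested 1.59% were called higher, 1.24% were called lower and 54.2% had a positive shared effect. Without immune stretched 2 and immune control 4 these were 4 higher and 3 lower, 14 positive and a median of 0.01, and with length and GC offsets 1 member was called. Besides *Mafk* the members that rose were *Sqstm1*, the autophagy receptor p62 (0.81 ± 0.18), *Srxn1*, the enzyme that repairs oxidised peroxiredoxins (0.85 ± 0.20), and *Gclc*, the catalytic subunit of glutathione synthesis (0.63 ± 0.16). *Srxn1* had a log2 fold change of 0.13 in stromal and 1.56 in immune cells, *Sqstm1* of 0.23 and 1.39, and *Gclc* of 1.08 and 0.18. None of these 3 differences passed its own test (adjusted p 0.0857, 0.1 and 0.134). The list summed to 43300 CPM in immune stretched 2 and to at most 22800 CPM in any other library. Its median was 0.10 without immune stretched 2, with 4 members called higher, and 0.48 without immune control 5. A single member was called without stromal control 1 or 3, stromal stretched 6, 7 or 8, or immune stretched 1, 7 or 8, and 2 without stromal stretched 5 or immune control 3 or 6.

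The higher genes described next have the largest shared effects among called genes with groups apart in both fractions. *Plk3* (ENSMUSG00000028680, chromosome 4, 117128655 to 117133963), a stress-induced polo-like kinase, was at 46.3, 43.5, 43.9 and 29.7 CPM in stromal controls and 90.2, 93.3, 98.9 and 83.3 CPM in stretched stromal libraries. The immune fraction gave 25.3, 18.7, 53.4 and 40.3 CPM in controls and 68.1, 315, 85.1 and 94.7 CPM after stretch. The groups were apart in both fractions, and the library at 315 CPM was immune stretched 2. The shared log2 fold change was 1.60 ± 0.30 (adjusted p = 0.0206). *Map3k3*, a MAP kinase kinase kinase upstream of p38 and NF-kB, rose by 0.97 ± 0.17. *Kctd10* (1.63 ± 0.25) and *Kbtbd2* (0.95 ± 0.15), both substrate adaptors of cullin-3 ubiquitin ligases, rose as well. *Kctd10* had 0.75 ± 0.34 in stromal and 2.51 ± 0.38 in immune cells (adjusted p of the difference 0.0872), and *Kbtbd2* had 0.87 and 1.04.

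*Ahcyl2* (ENSMUSG00000029772, chromosome 6, 29768011 to 29912310), a relative of adenosylhomocysteinase that binds the inositol trisphosphate receptor, was at 17.6, 19.5, 20 and 16.9 CPM in stromal controls and 29.5, 45.8, 45.0 and 44.8 CPM after stretch. Immune libraries gave 50.6, 65.3, 90.9 and 111 CPM in controls and 170, 141, 164 and 218 CPM after stretch, without overlap. The log2 fold changes were 1.16 ± 0.25 in stromal and 1.12 ± 0.25 in immune cells. *Lbr*, the lamin B receptor of the inner nuclear membrane, changed by 1.02 ± 0.27 and 0.93 ± 0.27, and *Fgl2*, a fibrinogen-like protein with prothrombinase activity, by 1.01 ± 0.35 and 1.08 ± 0.35. *Uba7*, the activating enzyme for the ubiquitin-like protein ISG15, had 0.84 ± 0.28 and 1.09 ± 0.29. *Clk3*, a kinase of splicing factors (1.26 ± 0.21), *Ciz1*, a nuclear matrix protein of DNA replication (1.23 ± 0.24), *Zfp276*, a zinc finger gene (1.09 ± 0.25), *Crebzf*, a leucine zipper factor (0.97 ± 0.20), and *Cables2*, a cyclin-dependent kinase binding protein (0.96 ± 0.15), completed the 14 reported. In these 5 genes the immune estimate was the larger, from 1.35 for *Cables2* to 1.94 for *Clk3* against 0.56 to 0.79 in stromal cells, and none of the differences passed (adjusted p 0.1 to 0.481).

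**Figure D2:**
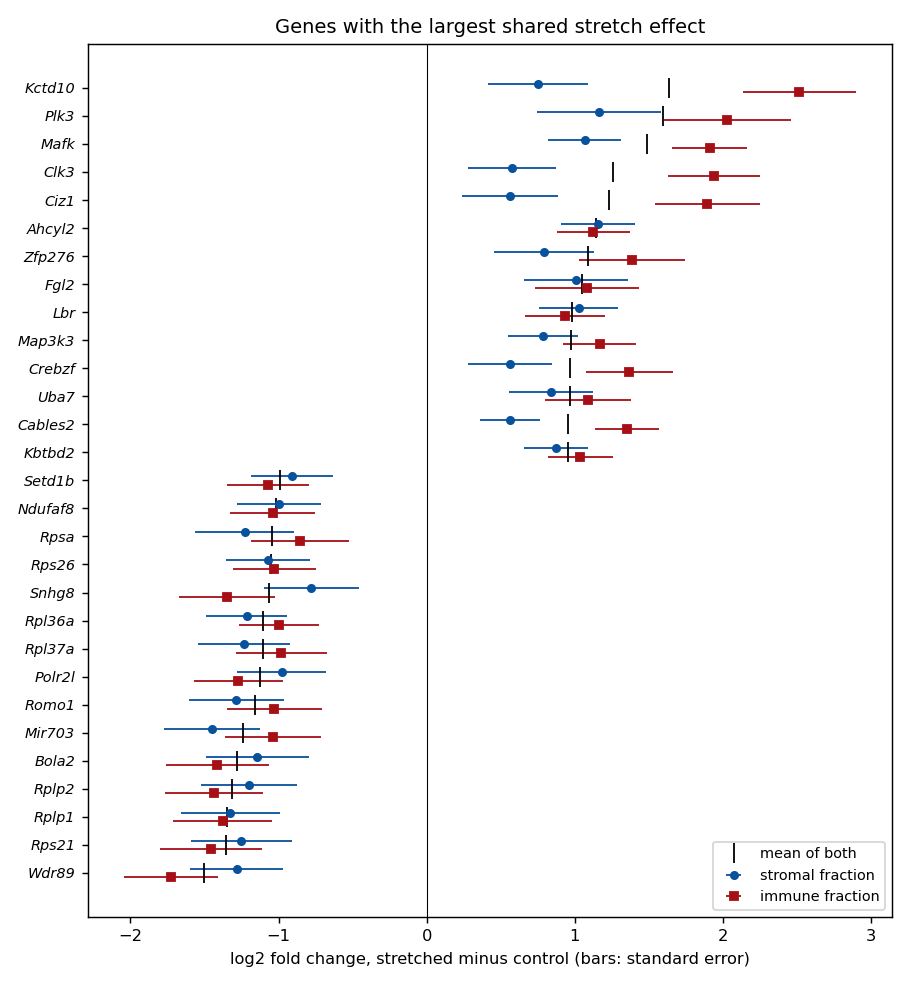
Named genes with the largest shared effect among called genes with at least 10 CPM and no overlap in either fraction, 14 higher and 15 lower, with the log2 fold change (stretched minus control) in the stromal fraction (blue circles) and the immune fraction (red squares), bars giving the standard error and the black tick their mean. The 14 higher genes range from 0.95 for *Kbtbd2* to 1.63 for *Kctd10*, and the 15 lower genes from -0.99 for *Setd1b* to -1.50 for *Wdr89*.

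Immediate early genes are the usual first response to a stimulus, and a list of these and related transcription factors gave 2 calls at 6 h. Of 27 listed transcription factors 1 rose and 1 fell, against 1.59% higher and 1.24% lower of all genes tested. *Fosl1* (ENSMUSG00000024912, chromosome 19, 5447547 to 5455946), the late-induced AP-1 subunit Fra-1, was at 35.4, 28.4, 24.3 and 35.5 CPM in stromal controls and 61.5, 63.9, 34.7 and 52.2 CPM after stretch. Its immune values were 5.92, 2.08, 1.73 and 4.88 CPM in controls and 10.2, 15.2, 10.6 and 17.8 CPM after stretch. Stromal stretched 7 overlapped the controls and the immune groups were apart, and the shared log2 fold change was 1.31 ± 0.24 (adjusted p = 0.0181). *Maf*, a large Maf factor of macrophages and T cells, fell by 1.19 on the log2 scale (SE 0.28, adjusted p = 0.0339), from 65.2 ± 10.4 to 26.4 ± 9.78 CPM in stromal cells and from 230 ± 142 to 110 ± 55.0 CPM in immune cells. *Nr4a1* (0.68, adjusted p = 0.0969), *Klf4* (-0.74, 0.0985), *Myc* (0.74, 0.150) and *Junb* (0.56, 0.166) did not pass.

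Of 27 feedback inhibitors induced early after a stimulus, 23 had a positive shared effect (median 0.43), 2 rose and 1 fell. Over all genes tested 54.2% had a positive shared effect, 1.59% were called higher and 1.24% lower. *Socs3*, the inhibitor of STAT signalling, was at 1655, 840, 976 and 1639 CPM in stromal controls and 1205, 2139, 2331 and 1692 CPM after stretch, with overlap. Its immune values, 244, 124, 222 and 259 CPM in controls and 687, 450, 638 and 979 CPM after stretch, did not overlap, and the shared effect was 1.11 ± 0.24 (adjusted p = 0.0286). *Zfp36l2*, which promotes decay of mRNAs with AU-rich elements, rose by 0.67 ± 0.14, while *Spry2*, an inhibitor of receptor tyrosine kinase signalling, fell by 0.86 on the log2 scale (SE 0.21). The related genes *Zfp36l1* (-0.71, adjusted p = 0.0591) and *Dusp1* (0.63, adjusted p = 0.158) did not pass.

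Among 33 cytokines and chemokines 1 rose, a share near that of all genes tested (1.59% higher). *Csf3*, the granulocyte growth factor G-CSF, was at 5.40, 2.92, 2.64 and 2.04 CPM in stromal controls and 14.3, 10.7, 5.92 and 8.57 CPM after stretch, without overlap. In immune cells it was at 19, 21.7, 44.7 and 39.3 CPM in controls and 60.0, 120, 37.3 and 40.2 CPM after stretch, with overlap. The shared log2 fold change was 1.33 ± 0.30 (adjusted p = 0.0298). *Csf1*, the macrophage growth factor, had even effects of 0.71 and 0.67 that did not pass as a mean (adjusted p = 0.0578). *Il1a* had a shared effect of 1.94 ± 0.57 (adjusted p = 0.0698), with at most 0.779 CPM in any stromal library. *Cxcl1* (0.59) and *Tnf* (0.80) did not pass either.

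Genes of mechanical sensing and cell adhesion gave scattered calls, beside 2.83% called over all genes tested. A single call in a list of this size is close to that share and is not a result about the list. Of 31 focal adhesion and actin genes, *Itga5*, the fibronectin receptor subunit (0.80 ± 0.20), and *Actn4*, an actin cross-linker (0.84 ± 0.22), rose, and the list's median was 0.16. Of 24 YAP/TEAD regulators and targets, *F3*, tissue factor, rose (0.98 ± 0.21), and the list's median was 0.13. Of 17 mechanosensitive channels and polycystins tested, *Trpv2* rose (0.78 ± 0.20), from 33.8 ± 5.91 to 58.9 ± 16.6 CPM in immune cells and from 2.37 ± 1.16 to 3.96 ± 0.495 CPM in stromal cells. *Piezo1*, the stretch-gated channel, had 0.34 (adjusted p = 0.282). Of 14 nuclear lamina and LINC genes *Lbr* was the 1 called, and 13 were positive. Of 26 cell junction genes *Ctnnb1*, which encodes beta-catenin, rose (0.85 ± 0.19), while the list as a whole had opposite medians of 1.12 in stromal and -1.31 in immune cells. None of 16 SRF and contractile genes or of 10 caveola genes was called.

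The nuclear and stress lists described next held 1 to 4 calls each, and 1 call in a list of about 20 to 30 genes is near the 2.83% called over all genes. The lists of cell cycle, endoplasmic reticulum chaperone, and hypoxia and glycolysis genes held 0 calls. Of 33 CLK kinases, SR proteins and nuclear RNAs, *Clk3*, *Ccnl2*, a cyclin of splicing speckles, and *Leng8* rose and the RNA helicase gene *Ddx17* fell by 0.87 on the log2 scale. *Ccnl2* had log2 fold changes of 0.81 in both fractions, with 230, 258, 242 and 228 CPM in stromal controls and 376, 492, 443 and 369 CPM after stretch. Immune libraries gave 199, 124, 264 and 232 CPM in controls and 302, 403, 333 and 403 CPM after stretch, so the groups were apart in both fractions. *Leng8* had 1.87 ± 0.35 in stromal and 0.72 ± 0.34 in immune cells. Of 19 clock genes the repressor *Cry1* rose (0.77 ± 0.17), and of 18 heat shock genes *Hsf1*, the heat shock transcription factor, rose (1.06 ± 0.24) while the mitochondrial chaperonin *Hspe1* fell by 0.86 on the log2 scale (SE 0.21). Of 20 genes of the integrated stress response 1 was called: *Atf5* fell by 1.28 on the log2 scale (SE 0.30). *Setd1b* and *Chd8* (-0.85 ± 0.21), a histone methyltransferase and a chromatin remodeller, were the 2 members called among 25 long chromatin genes, both lower.

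Genes with a symbol beginning with Rpl or Rps, as most ribosomal protein genes have, made up 52 of the 226 genes called lower. The share of such symbols over all genes tested was not counted. Pseudogenes of any kind made up 76 of the 226, against 1077 of the 18295 genes tested. Of 38 listed ribosomal protein genes 9 were called lower and 0 higher, against 1.24% and 1.59% of all genes tested. All 38 had a negative shared effect, with a median of -0.67 (-1.04 in stromal and -0.27 in immune cells), and 36 to 38 stayed negative under the alternative settings, scaling included. Over all genes tested 45.8% had a negative shared effect. Of the 38, 28 were negative in both fractions, against 20.9% of all genes tested. Their summed level was 11600 to 19700 CPM in stromal controls and 5950 to 10500 CPM after stretch, and 19100 to 27700 CPM in immune controls and 11900 to 15000 CPM after stretch, without overlap in either fraction.

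*Rplp1* (ENSMUSG00000007892, chromosome 9, 61913284 to 61914542), a protein of the ribosomal stalk that recruits elongation factors, was at 647, 461, 639 and 330 CPM in stromal controls and 258, 244, 108 and 220 CPM after stretch. In immune cells it was at 1662, 769, 1256 and 936 CPM in controls and 478, 541, 438 and 322 CPM after stretch. The groups were apart in both fractions, a condition by which *Rplp1* and the other genes named for the largest falls were chosen. The effects were -1.33 ± 0.34 in stromal and -1.38 ± 0.34 in immune cells (shared edgeR adjusted p = 0.0169). Its stalk partner *Rplp2* changed by -1.20 ± 0.33 and -1.44 ± 0.33. *Rps21* (ENSMUSG00000039001, chromosome 2, 180257377 to 180258445), a protein of the small subunit, was at 228, 158, 215 and 101 CPM in stromal controls and 82.0, 88.7, 40.3 and 84.0 CPM after stretch. The immune fraction gave 717, 374, 602 and 394 CPM in controls and 197, 269, 173 and 122 CPM after stretch. These groups did not overlap, by the same condition, with a shared log2 fold change of -1.35 ± 0.24 (edgeR adjusted p = 0.0179). *Cables2*, which rose, lies beside it on the other strand of chromosome 2 (180258540 to 180273496). *Rpl37a* (-1.11), *Rpl36a* (-1.11), *Rps26* (-1.05) and *Rpsa* (-1.04) also fell. Because ribosomal protein genes share sequence with many pseudogenes, their counts could have been split among copies. Of the 226 genes called lower, 52 had a symbol beginning with Rpl or Rps, and 29 of these were marked as pseudogenes. Among the 291 called higher 0 were counted, but with a narrower symbol pattern, so the counts of the lower and higher genes are not alike.

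Nuclear genes of oxidative phosphorylation followed the same direction. Of 36 listed, 6 were called lower and 0 higher, and 32 were negative, with a median of -0.61 (-1.0 in stromal and -0.26 in immune cells). Over all genes tested 1.24% were called lower and 45.8% were negative. *Ndufs6* (ENSMUSG00000021606, chromosome 13, 73319838 to 73328542), a subunit of complex I, was at 173, 174, 212 and 108 CPM in stromal controls and 88.7, 78.4, 38.5 and 70.7 CPM after stretch. In immune cells it was at 298, 142, 242 and 248 CPM in controls and 144, 167, 142 and 94.5 CPM after stretch. The stromal groups were apart, and in the immune fraction control 4 lay among the stretched libraries. The shared log2 fold change was -1.02 ± 0.21 (adjusted p = 0.0284). The complex I subunits *Ndufa2* (-1.04), *Ndufb7* (-0.93) and *Ndufc1* (-0.83), the complex III subunit *Uqcr11* (-1.01) and the ATP synthase subunit *Atp5k* (-1.07) fell too. The list's calls were 0 without stromal control 1 or 3, stromal stretched 7 or 8, or immune stretched 1, 7 or 8, and 1 without stromal stretched 6. They were 3 without stromal control 2 or immune control 5, 12 without immune stretched 2 and 21 without immune control 4, while 31 to 36 members were negative under all settings tried. With length and GC offsets 2 members were called lower, and with DESeq2 20. The count was 0 with the library-size covariate, with the replicate block, and without stromal stretched 7 and 8 and immune control 4. The list's median transcript length was 861 bases, and 4.70% of all genes of 500 to 1000 bases were called lower. In the 250 bases before the RefSeq start, searched on both strands, the ETS motif CCGGAAG was found in 27.6% of 29 genes of this list and in 37.0% of 27 ribosomal protein genes with a window, against 12.3% of all genes with a window. It was in 20.2% of genes called lower and 13.4% of those called higher. Of the other motifs searched, TGACGTCA was in 11.1%, 0% and 2.54% of the ribosomal, oxidative phosphorylation and all genes. In the same order, GGGCGG was in 51.9%, 31.0% and 55.2%, and a start at C then 5 pyrimidines in 22.2%, 0% and 1.74%. GGGCGG was in 54.1% of genes called lower and 67.6% of those called higher, and that start in 6.42% and 0.463%. Binding was not measured, and a link of these motifs to stretch was not tested. None of 12 mitochondrially encoded genes tested was called, with a median of -0.14.

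The other named genes that fell had various roles. *Wdr89* (ENSMUSG00000045690, chromosome 12, 75630596 to 75669537), a WD-repeat gene, was at 33.9, 26.7, 35.6 and 21.9 CPM in stromal controls and 16.9, 12.2, 6.46 and 13 CPM after stretch. Its immune values were 137, 97.0, 146 and 91.4 CPM in controls and 43.6, 46.6, 33.6 and 19.3 CPM after stretch. The groups did not overlap, a condition by which the 15 named were chosen. The shared log2 fold change of *Wdr89*, -1.50 ± 0.22 (edgeR adjusted p = 0.0105), was the largest fall among the 15 named. *Bola2*, a partner of glutaredoxins in iron delivery (-1.28 ± 0.25), *Romo1*, a small protein of the inner mitochondrial membrane (-1.16 ± 0.23), *Polr2l*, a subunit shared by the RNA polymerases (-1.13 ± 0.21), and *Ndufaf8*, an assembly factor of complex I (-1.02 ± 0.20), fell, with estimates between -0.98 and -1.41 in the separate fractions. *Bola2* may share reads with near-identical copies. *Snhg8*, a non-coding host gene of a small nucleolar RNA, fell by 1.06 on the log2 scale (SE 0.23). *Mir703* (ENSMUSG00000105814), annotated as a microRNA gene, had -1.24 ± 0.23, but libraries made from long RNA do not measure mature microRNAs and its reads may belong to other copies or to an overlapping transcript.

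**Figure D3:**
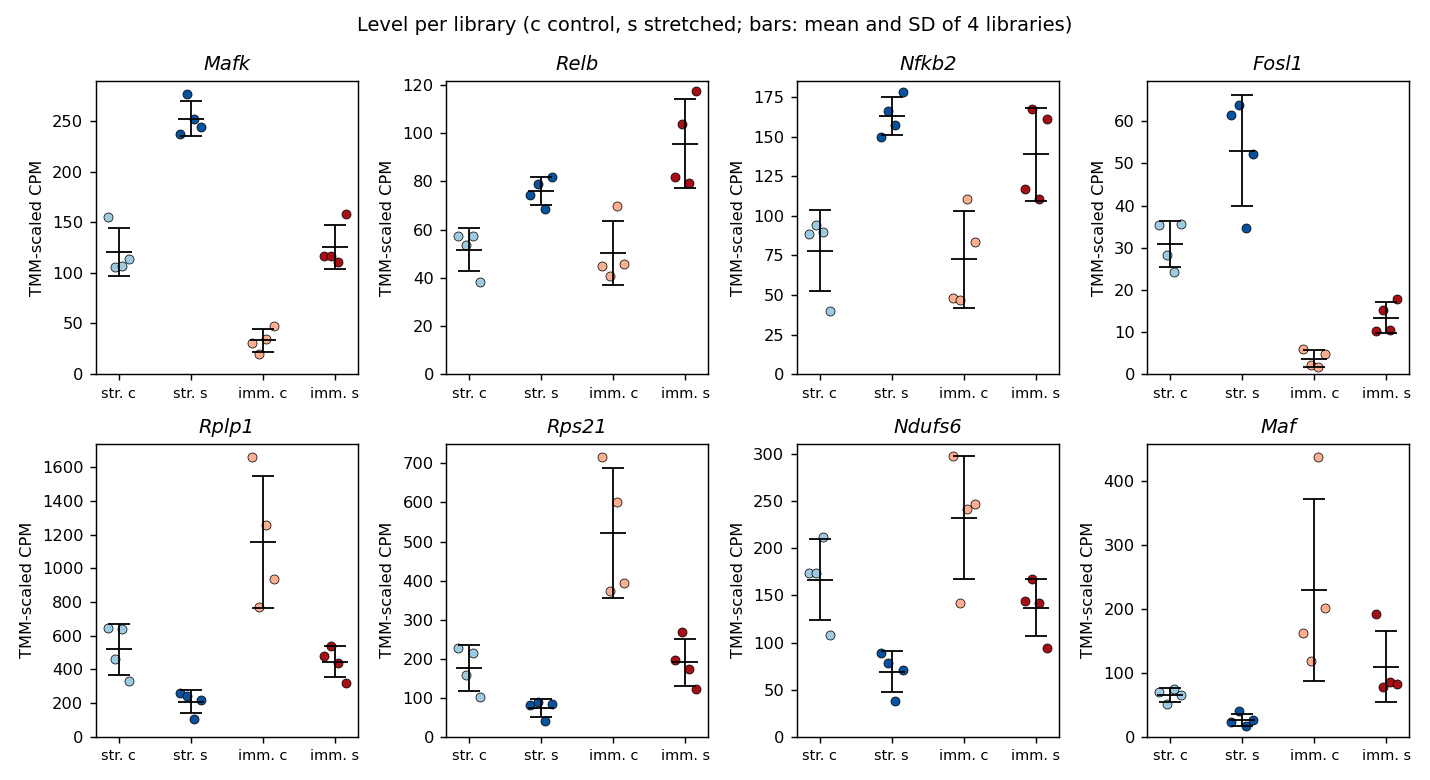
Level of 8 genes in each of the 16 libraries in TMM-scaled CPM (control then stretched, with the stromal pair of groups on the left and the immune pair on the right), with each point a library and bars giving the mean and SD of 4. *Mafk* and *Relb* are higher, and *Rplp1* and *Rps21* lower, in every stretched library than in every control of the same fraction, whereas *Nfkb2*, *Fosl1*, *Ndufs6* and *Maf* overlap in 1 fraction. *Mafk*, *Rplp1* and *Rps21* were chosen among genes without overlap.

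Genes called higher and lower differed in transcript length. The median length of the longest annotated transcript was 3349 bases for genes called higher and 886 bases for genes called lower, against 2959 bases for all genes tested, and 93.1% and 57.1% of them were protein coding, against 79.5%. Among 784 genes under 500 bases 7.40% were called lower and 0.765% higher. Among 7027 genes of 2000 to 4000 bases 0.583% were called lower and 2.49% higher. The longest genes did not follow this order: of 867 genes of 8000 bases or more, 1.04% were called lower and 0.231% higher. The Spearman correlation across 18291 genes between length and effect was 0.10 for the shared effect, 0.35 in stromal and -0.12 in immune cells, genes not being independent replicates. With offsets for length and GC content in each library, 155 genes were called, 46 higher and 109 lower. Under those offsets 5 of 38 ribosomal protein genes were called lower with all 38 negative, and *Rplp1* kept its call at a log2 fold change of -1.20 (adjusted p = 0.0217, with 26 of 32 alternatives calling it and adjusted p values from 9.12e-07 to 1). Without stromal stretched 7 and 8 and immune control 4, the libraries with receptor reads, 2 genes in all and 0 ribosomal protein genes were called, and 37 of the 38 were negative. The calls of the ribosomal protein list were 0 without stromal control 3 or immune stretched 8, 2 without immune stretched 7, and 3 without stromal control 1, stromal stretched 7 or 8, or immune stretched 1. They were 5 without stromal stretched 6 or immune control 5, 15 without immune stretched 2 and 24 without immune control 4.

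**Figure D4:**
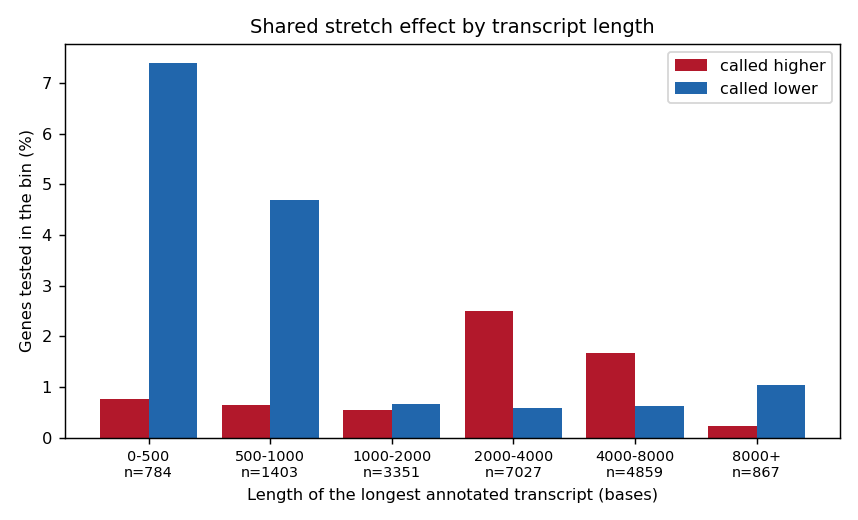
Percentage of genes tested that were called higher (red) or lower (blue) for the shared stretch effect, by the length of the longest annotated transcript in bases, with the number of genes tested under each pair of bars. Below 1000 bases 4.70% to 7.40% of genes were called lower, and from 2000 to 8000 bases 1.67% to 2.49% were called higher.

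Of 32 pathway lists 13 had no member called. Several of these leaned to 1 side without a call. All 13 MHC class II genes were positive as a mean, with a median of 0.55, yet the stromal median was -0.05 and the immune median 1.26. Of 26 hypoxia and glycolysis genes 24 were positive (median 0.32, with -0.10 in stromal and 0.79 in immune cells), and of 27 collagens and matricellular genes 23 were positive (median 0.50, with *Postn* at 1.38 and adjusted p = 0.0546). Matrix proteases and inhibitors had a median of 0.58 over 24 genes, and interferon-stimulated genes of -0.01 over 23. Proteasome and translation factor genes had medians of -0.09 each, with opposite signs in the fractions (-0.58 and 0.42, and -0.47 and 0.18). The medians of the other lists without a call lay between 0.07 for the cell cycle and 0.16 for endoplasmic reticulum chaperones, apart from those given above. Among lists with a call, lysosome and autophagy genes (*Sqstm1* and *Becn1* of 28) had a stromal median of -0.05 and an immune median of 0.86, and dendritic cell maturation genes (*Relb* and *Cd40* of 18) had 0.16 and 0.47.

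**Figure D5:**
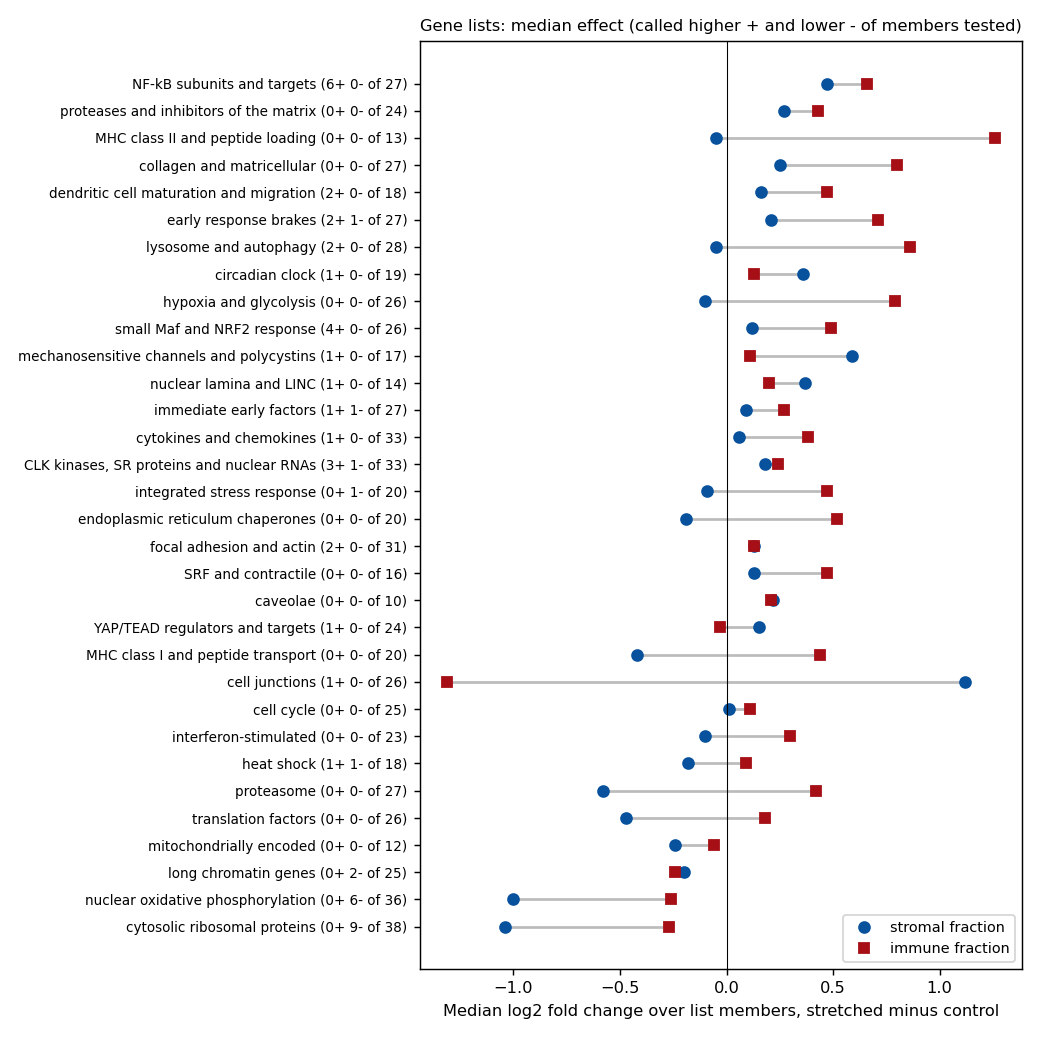
Median log2 fold change (stretched minus control) over the members of 32 gene lists in the stromal (blue circles) and immune (red squares) fraction, with the members called higher and lower of those tested in brackets. The NF-kB list has the most members called higher (6 of 27) and ribosomal proteins the most called lower (9 of 38), and cell junctions have opposite medians of 1.12 and -1.31. Over all genes tested 1.59% were called higher and 1.24% lower. The lists were chosen with earlier results of these data known.

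Of 196 cell type markers tested 2 were called (1.02%, against 2.83% of all genes), and 15 of 17 marker lists had no member called. The exceptions were *Zbtb46*, a factor of conventional dendritic cells, which rose (0.97 ± 0.25, adjusted p = 0.0487), and *Thy1*, which marks T cells and also fibroblasts and fell by 1.30 on the log2 scale (SE 0.30, adjusted p = 0.0317). *Thy1* was at 149, 189, 240 and 79.9 CPM in stromal controls and 92.8, 55.9, 25.3 and 58.8 CPM after stretch, and its groups overlapped. The T cell receptor component *Cd3e* was at 0 counts in all 4 stromal controls and in 1 of the 4 stretched stromal libraries. All 12 leukocyte markers (median 0.59) and all 14 fibroblast markers (median 0.60) were positive as a mean. The leukocyte medians were 0.20 in stromal and 0.79 in immune cells, and 7 of 12 were positive in both. Those of the fibroblast markers were 0.08 and 1.07, with 6 of 14 positive in both. Fibroblast markers summed to 46200 to 58900 CPM in stromal controls and 49900 to 68400 CPM after stretch, and to 1600 to 7620 and 1460 to 10600 CPM in the immune groups. Macrophage and dendritic cell markers summed to 4120 to 9530 CPM in immune controls and 9450 to 18300 CPM in stretched immune libraries, and to 67.0 to 120 and 79.2 to 185 CPM in the stromal groups. In the stromal fraction the sums of 2 lists did not overlap: blood endothelium markers were at 2500 to 2940 CPM in controls and 1600 to 2120 CPM after stretch, and pericyte and smooth muscle markers at 58.9 to 155 and 164 to 206 CPM. The immune groups overlapped for both, with 223 to 1410 and 175 to 1000 CPM, and 23.8 to 230 and 65.3 to 98.6 CPM. The median stromal log2 fold change was 0.37 over 15 blood endothelium markers and 0.40 over 9 pericyte and smooth muscle markers. Most blood endothelium markers thus had a positive stromal effect while their sum fell. The part of these cell contents in the shared effect was not tested.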

How the data were processed

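Bulk RNA-seq libraries of sorted skin cells were compared (16 libraries, 4 per group). Libraries were made with a SMART-Seq mRNA kit for low input and Nextera XT, per the labels' protocols, and the submitters' processing notes name FastQC 0.11.9, STAR and the build mm10. The deposited values are raw read counts per Ensembl gene. Which counting tool, strand setting and annotation release the authors used is not given in the sources used here, so reads of pseudogenes, overlapping and antisense genes cannot be told apart. Of 55487 gene IDs, 55394 matched GENCODE M21 (GRCm38), which gave names, positions and transcript lengths.

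Genes were kept by filterByExpr (minimum count 10, minimum total 15) and fitted over all 16 libraries with 1 mean per group, TMM scaling and the quasi-likelihood test of edgeR 4.0.16 in R 4.3.3. The shared effect is the mean of both within-fraction effects, and a gene is called at a Benjamini-Hochberg adjusted p under 0.05. Total counts of 2645421 to 26944965 per library limit precision most in the immune controls. DESeq2 1.42.0, limma 3.58.1 (voom), other scalings, filters, covariates and omissions were alternatives.

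Named genes are the 15 called each way with the largest shared effect among those whose higher group averaged 10 CPM or more in each fraction, with groups not overlapping in either fraction, leaving out predicted genes, marked pseudogenes and receptor segments, plus for each list up to 6 members with the smallest p. Members and lists were chosen with earlier results of these data known. Of the 15 higher genes 1 is not reported here.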

Additional observations from a re-analysis of the deposited data

Results flagged for a closer look

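Of 276 pairs of a named gene and a group of 4 libraries, 20 had a library set apart from the other 3 by a gap that took up most of the group's range. Chance alone sets apart about 1 in 20 groups.

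Among genes that rose, *Plk3* was at 315 CPM in immune stretched 2, against 68.1 to 94.7 CPM in the others of its group, and *Trpv2* at 83.8 CPM in the same library, against 48.9 to 52.4 CPM. *Mafk* was at 155 CPM in stromal control 1 (others 106 to 114) and at 158 CPM in immune stretched 8 (110 to 117). *Rela* was at 241 CPM in immune stretched 8 (166 to 175), *Relb* at 69.7 CPM in immune control 5 (40.9 to 45.5) and *Nfkb2* at 39.8 CPM in stromal control 4 (88.3 to 94.3). *Ahcyl2* was at 29.5 CPM in stromal stretched 5 (44.8 to 45.8) and *Ciz1* at 34.9 CPM in stromal stretched 7 (27.1 to 27.8). Stromal controls stood apart for *Lbr* (16.9 CPM in control 4, others 19.9 to 20), *Cables2* (26 CPM in control 3, others 21.2 to 21.8) and *Trpv2* (4.11 CPM in control 1, others 1.70 to 1.87).

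Among genes that fell, stromal stretched 7 was the lowest for *Rps21* (40.3 CPM, others 82.0 to 88.7), *Uqcr11* (43.4 CPM, others 84.6 to 91.1) and *Ndufc1* (47.6 CPM, others 87.5 to 94.2). *Ndufc1* was also low in immune control 4 (123 CPM, others 261 to 281). *Maf* was at 192 CPM in immune stretched 1 (78.4 to 85.9) and *Chd8* at 12.4 CPM in immune stretched 8 (17.6 to 18.1). *Hspe1* was at 349 CPM in stromal control 4 (281 to 288) and at 360 CPM in immune stretched 8 (245 to 260).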

How the results depend on the processing

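The shared effect was called for 517 genes, and for 809 with upper-quartile scaling (291 higher and 518 lower), 140 without a filter, 1733 with DESeq2, 2664 with limma-voom and sample quality weights, 216 with an additive model, 0 with a minimum fold of 1.5, 1052 with detected genes as a covariate, 0 with the log2 library size as a covariate, 155 with length and GC offsets (29.7% higher), 2 without stromal stretched 7 and 8 and immune control 4, and 1753 without immune stretched 2 and immune control 4. Leaving out 1 library gave 11 to 999. The immune effect (667) was called for 275, 2278, 1216, 1453, 0, 87, 164 and 1345 genes under the same settings from no filter on, leaving aside the additive model and the minimum fold (7). It was called for 79 with 1 variance weight per fraction, 0 with each fraction fitted by itself and 66 to 1622 with 1 library left out. The stromal effect (0) was called for 1204 genes with DESeq2, 4010 and 1473 with the voom fits, 800 by itself, 815 without immune stretched 2 and immune control 4, and 0 to 1 with 1 library left out. The difference (0) was called for 25 genes with upper-quartile scaling, 3924 without a filter, 120 at 50 reads in 4 libraries, 1609 with DESeq2, 1453 with sample weights, 698 without immune stretched 2 and immune control 4, and 0 to 1495 with 1 library left out. DESeq2 called 1 gene for both effects at once. The cause of these changes was not tested. Same-numbered libraries correlated at -0.12 to 0.16 in 8 pairs, 3 of them over 0.1, and 1 pair correlated best with its own number. Libraries numbered 1, 2, 5 and 6 had opposite treatments in the fractions. For the other numbers such correlations between different cells cannot tell whether the libraries came from 1 mouse. With the replicate block 0 genes were called for the shared effect, 0 for the immune effect and 2 for the difference. Depth limits the immune controls most.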
